A study of Mus musculus with 24 samples.

Results

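Apelin (Apln), Esm1 and Cxcr4 are known markers of the tip cell, the endothelial cell that leads a growing vessel sprout, and the other genes grouped with them here are their receptor or ligand partners. Members were taken by name: the peptide ligand Apln, its receptor Aplnr, the secreted proteoglycan Esm1, the chemokine receptor Cxcr4, the atypical receptor Ackr3 and their shared chemokine ligand Cxcl12. They are 6 of the 35727 genes in the count table, and 5 of them passed the filter on low counts that left 14804 genes for testing. The cells were fibroblasts from mouse heart, grown in EGM2, a medium made for endothelial cells. Conditions named control, Erg, Sox17 and SEG were each collected at day 3 and at day 7, with 3 libraries for each of the 8 groups. Erg and Sox17 are transcription factors of endothelial cells. The labels call the control cells fibroblasts and the other 3 conditions iEC. They do not spell out SEG, nor do they give the animals' strain and age, the vector or what the control cells received. The labels do not tie the 3 libraries of a group to separate dishes or mice. Each p-value therefore reflects only how far these libraries varied, and that variation may be technical.

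As background, apelin is made by sprouting endothelial cells and acts through a G protein-coupled receptor on neighbouring endothelial cells. Cxcl12 signals through Cxcr4, while Ackr3 binds the same chemokine and removes it from the surroundings. Esm1, also called endocan, is secreted by tip cells. In heart, Cxcl12 is made by stromal and endothelial cells and guides vessel growth.

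All positions are on mm10, from GENCODE M21. Apln (ENSMUSG00000037010) spans chrX:48025146-48034853 on the minus strand and Aplnr (ENSMUSG00000044338) spans chr2:85136225-85139923 on the plus strand. Esm1 (ENSMUSG00000042379) spans chr13:113209659-113218098 on the plus strand. Cxcr4 (ENSMUSG00000045382) spans chr1:128588199-128592293 on the minus strand and Ackr3 (ENSMUSG00000044337) spans chr1:90203980-90216751 on the plus strand. Cxcl12 (ENSMUSG00000061353) spans chr6:117168535-117181367 on the plus strand. All are annotated as protein-coding genes. Esm1 lies within the span of Gzmk, a granzyme gene on the other strand, and the strand setting of the counting is not given in the sources used here. Gzmk had 3 counts over all 24 libraries and none in 21 of them.

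The 250 bases before the start of Apln, Esm1 and Cxcr4 are shown because these 3 genes differed most between SEG and Erg. They come from RefSeq's table for GRCm38.p6 (the build mm10), in which 5 of the 6 members were found. Each reads 5′ to 3′ along the gene's own strand. Capitals mark GGAA, the core letters bound by ETS factors such as Erg, on either strand, where the other strand reads TTCC. ACAAT, letters of the SOX core, would be marked too. The stretches lie at chrX:48034854-48035103, chr13:113209409-113209658 and chr1:128592300-128592549.
Apln: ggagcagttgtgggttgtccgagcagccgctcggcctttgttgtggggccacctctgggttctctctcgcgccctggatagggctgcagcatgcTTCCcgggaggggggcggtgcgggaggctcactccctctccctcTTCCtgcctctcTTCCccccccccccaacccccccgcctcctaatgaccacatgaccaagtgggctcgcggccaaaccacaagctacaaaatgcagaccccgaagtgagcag
Esm1: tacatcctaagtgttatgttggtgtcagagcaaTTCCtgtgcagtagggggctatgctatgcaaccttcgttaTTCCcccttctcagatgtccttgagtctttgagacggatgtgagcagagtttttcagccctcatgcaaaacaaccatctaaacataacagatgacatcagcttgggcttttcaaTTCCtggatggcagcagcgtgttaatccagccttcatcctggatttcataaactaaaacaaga
Cxcr4: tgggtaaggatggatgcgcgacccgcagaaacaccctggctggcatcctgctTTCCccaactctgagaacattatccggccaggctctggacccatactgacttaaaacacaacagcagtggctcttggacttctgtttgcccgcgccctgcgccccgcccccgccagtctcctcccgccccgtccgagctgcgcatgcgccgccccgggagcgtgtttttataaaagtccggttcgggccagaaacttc
GGAA occurred 3 times before Apln and 3 times before Esm1, and once before Cxcr4. It occurred in 93.4% of 32851 such windows, with a median of 3 matches. The longer letters CGGAAG, which hold GGAA, were in none of the 5 members' windows and in 13.6% of all windows. Among the members, ACAAT was found before Cxcl12, with 1 match on either strand, and 27.7% of all windows held it. CGTG, the core letters bound by hypoxia-inducible factors, occurred in the windows of Esm1, Cxcr4 and Ackr3, and in 55.5% of all windows. A match is a description of letters, not of binding.

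Levels are CPM, counts scaled to the library size after TMM normalization. Log2 changes come from edgeR's quasi-likelihood test on all 24 libraries, and a gene was called where its p, adjusted by Benjamini-Hochberg over all genes tested, was under 0.05. Rises and falls are on the log2 scale throughout, and SD and fold values are on the CPM scale. Total counts per library ran from 18794422 to 44586227. Replicate 1 of Sox17 and replicate 1 of SEG at day 7 stood apart, with 7.41% and 5.13% of counts in ribosomal protein genes against 2.98% to 4.69% in the others. The targeted genes followed the labels. Erg averaged 7087 ± 46.9 CPM (SD, n = 3) in the Erg cells at day 3 and 1268 ± 13.7 in SEG, and its group means did not exceed 0.0378 CPM in control and Sox17 at either day. Sox17 averaged 1606 ± 53.0 CPM in the Sox17 cells at day 3 and 1008 ± 49.9 in SEG, and had 0 counts in control. At day 7, Erg averaged 5138 ± 751 CPM in the Erg cells and 961 ± 109 in SEG. SEG thus had less Erg than the Erg cells at both days, and less Sox17 than the Sox17 cells at day 3. The part of these differences in the results below was not tested. The endothelial markers Cdh5, Pecam1, Tie1, Kdr, Emcn, Esam, Cldn5, Robo4, Egfl7 and Sox18 summed to 5.10 to 7.87 CPM in control over both days. At day 3 the same 10 genes summed to 214.6 to 225.8 CPM in Erg and 1437 to 1573 in SEG, and at day 7 to 181 to 191 in Erg and 2051 to 2344 in SEG. In Sox17 they summed to 511.5 to 608.9 CPM at day 3 and 157.5 to 379 at day 7. With Erg and Sox17 they make 12 markers. Of these, 8 were higher and 3 lower in SEG than in Erg at day 3, and 9 higher and 3 lower at day 7 (edgeR). Of all genes, 51.0% and 49.4% were called at these days. Fibroblast markers were abundant in SEG, at 17880 to 19430 summed CPM at day 7, against 34350 to 37150 in control. In these bulk samples, fewer cells of a type and less RNA per cell cannot be told apart.

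**Figure D1:**
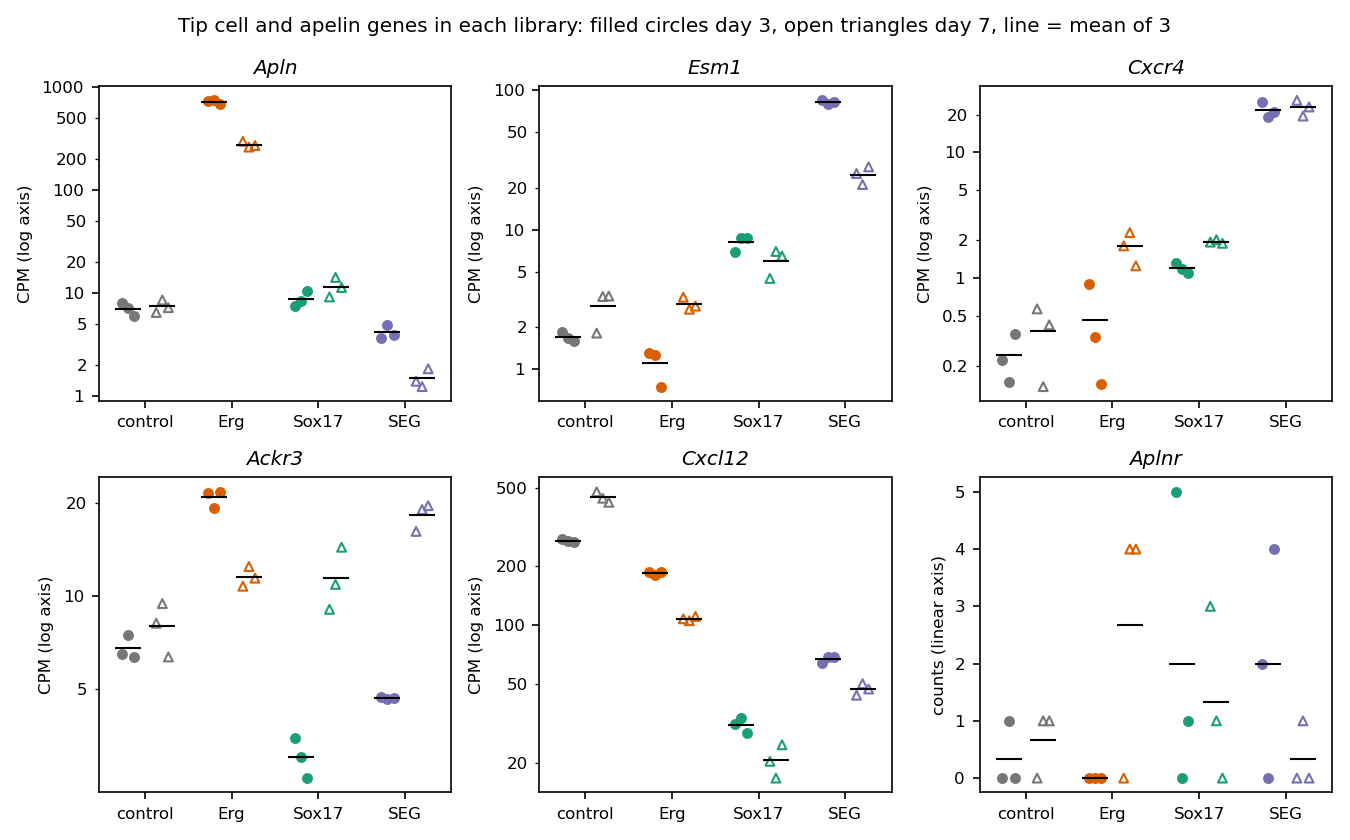
CPM of 5 genes (log axes) and counts of Aplnr (linear axis) in each library, by condition, with day 3 as filled circles, day 7 as open triangles and a line at the mean of 3 libraries. Apln was high in Erg alone, Esm1 and Cxcr4 were highest in SEG, Cxcl12 was highest in control, and Aplnr had 0 to 5 counts in each library.

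The apelin ligand was abundant in Erg and scarce in SEG. Apln stood at 730.2, 744 and 691 CPM in the 3 Erg libraries at day 3, against 8.03, 7.13 and 5.94 in control. In SEG at day 3 it stood at 3.68, 4.90 and 3.92 CPM, below every control library. In Sox17 at day 3 the 3 values were 7.41, 8.33 and 10.4 CPM, which overlapped control. The mean over 3 libraries was 722 ± 27.6 CPM (SD) in Erg and 4.17 ± 0.646 in SEG, which made Erg 173-fold higher. The log2 difference of SEG from Erg was -7.43 with a standard error (SE) of 0.20 (edgeR adjusted p = 2.28e-16). Depth did not limit this comparison, since the Erg libraries held 12929, 15240 and 23946 counts of Apln and the SEG libraries 72, 130 and 105.

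At day 7 Apln was lower than at day 3 in both Erg and SEG, and Erg was 186-fold above SEG. Erg held 297.8, 261 and 271 CPM and SEG 1.39, 1.23 and 1.83, and no library of either group overlapped the other. Control held 6.46, 8.55 and 7.19 CPM and Sox17 held 9.15, 14.2 and 11.3, so Sox17 lay above control and SEG below it. The log2 difference of SEG from Erg was -7.53 (SE 0.21, edgeR adjusted p = 3.82e-16), and the change of that difference between the days was -0.11 (95% interval -0.63 to 0.41, adjusted p = 0.842). From day 3 to day 7, Apln fell by 1.38 on the log2 scale in Erg (adjusted p = 1.02e-06) and by 1.49 in SEG (adjusted p = 1.24e-05). Against control, Apln in SEG fell by 0.75 at day 3 (adjusted p = 0.00194) and by 2.31 at day 7 (adjusted p = 6.33e-09), both log2. In Sox17, Apln was not called at day 3 (log2 change 0.31, adjusted p = 0.166) and rose by 0.64 at day 7 (adjusted p = 0.00294). The last call was lost when only the groups compared were fitted (adjusted p = 0.0682). Ordered by mean, Apln was highest in Erg at day 3 and then in Erg at day 7, the Sox17 and control groups overlapped their neighbours, and SEG at day 3 and at day 7 came last without overlap.

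The receptor of apelin was near the limit of counting in every group. Aplnr had 28 counts over all 24 libraries, was at 0 in 12 of them, and did not exceed 0.196 CPM in any. Erg at day 3, the group with the most Apln, had 0 counts of Aplnr in its 3 libraries. Over 3 libraries, 3 counts would be 0.0412 CPM there. Erg at day 7 had 0, 4 and 4 counts, and the SEG libraries had 2, 0 and 4 counts at day 3 and 0, 1 and 0 at day 7. In the Sox17 libraries there were 5, 0 and 1 counts at day 3 and 3, 1 and 0 at day 7, and control had 1 count at day 3 and 2 at day 7. The gene failed the filter, and without it edgeR called 0 of 19 comparisons (lowest adjusted p 0.095, with 3 at an unadjusted p under 0.05). Differences in Aplnr were not detectable at this depth.

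Esm1, the secreted proteoglycan, was highest in SEG, and of the single-factor groups it was higher in Sox17 than in Erg. At day 3 it stood at 84.7, 80.3 and 82.6 CPM in SEG and at 1.30, 1.27 and 0.75 in Erg. Sox17 held 6.92, 8.68 and 8.76 CPM and control 1.84, 1.68 and 1.59, so the 4 conditions did not overlap at day 3. SEG was 74.6-fold above Erg, with a log2 difference of 6.27 (SE 0.24, edgeR adjusted p = 3.96e-14), and 10.2-fold above Sox17 (log2 difference 3.35, adjusted p = 7.53e-11). Against control, Esm1 rose by 5.596 in SEG (adjusted p = 1.58e-13) and by 2.25 in Sox17 (adjusted p = 6.37e-08). In Erg its log2 change against control was -0.68, at an adjusted p of 0.0452. That call was lost with RLE size factors (adjusted p = 0.0578), with no filter on low counts (0.0725), with the replicate number as a block (0.0563), with only the groups compared (0.05) and in a test beyond 1.5-fold (0.479). It was also lost on leaving out any 1 of 13 libraries. These were all 3 of control and of SEG, replicates 2 and 3 of Sox17 and replicate 3 of Erg at day 3, and at day 7 replicates 2 and 3 of Erg, replicate 3 of Sox17 and replicate 1 of SEG. The adjusted p ran from 0.0218 to 0.479 over all alternatives.

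By day 7 the excess of Esm1 in SEG had shrunk. SEG held 25.3, 21.1 and 28.2 CPM and Erg 3.28, 2.69 and 2.83, still without overlap. Sox17 held 4.47, 6.98 and 6.46 CPM and control 1.81, 3.32 and 3.34, so Erg and control overlapped while Sox17 lay above both. SEG was 8.47-fold above Erg (log2 difference 3.08, SE 0.21, edgeR adjusted p = 1.83e-10). The log2 difference of SEG from Erg changed by -3.19 between the days (SE 0.31, adjusted p = 5.54e-07). Both groups changed: Esm1 fell by 1.73 in SEG (adjusted p = 6.34e-07) and rose by 1.46 in Erg (adjusted p = 0.000135). In Erg at day 7 the log2 change against control was 0.04 (95% interval -0.42 to 0.50, adjusted p = 0.906). Control itself went from 1.70 ± 0.129 to 2.83 ± 0.875 CPM, a rise of 0.75 that was called (adjusted p = 0.0234) although its libraries overlapped, and that was lost with a replicate block (adjusted p = 0.186). It was also lost on leaving out replicate 2 or 3 of control at day 3 or at day 7 (changes of 0.61 to 0.74). In the order of means, SEG at day 3 and SEG at day 7 stood apart at the top and Erg at day 3 at the bottom, while Sox17 at day 3 overlapped Sox17 at day 7, and Erg at day 7, control at day 7 and control at day 3 overlapped in turn.

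Cxcr4, the signalling receptor of Cxcl12, was near the limit of counting in control and reached its highest levels in SEG. At day 3, SEG held 25.1, 19.3 and 21.1 CPM and Erg 0.904, 0.342 and 0.144. Control held 0.223, 0.149 and 0.358 CPM, overlapping Erg, and Sox17 held 1.32, 1.18 and 1.09. SEG was 47.1-fold above Erg (log2 difference 5.73, SE 0.37, edgeR adjusted p = 1.04e-10) and 18.2-fold above Sox17 (log2 difference 4.17, adjusted p = 3.19e-09). Sox17 alone rose by 2.29 against control (adjusted p = 0.000612). Erg alone was not called (log2 change 0.73, 95% interval -0.50 to 1.95, adjusted p = 0.342), and without replicate 1 of Erg at day 3 the change was -0.115. Cxcr4 in Erg at day 3 rested on few counts, most of them in replicate 1. Without that library SEG was above Erg by 6.57 on the log2 scale (adjusted p = 7.49e-11), and without replicate 3 by 5.155.

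At day 7 Cxcr4 in SEG again stood far above the other conditions, at 26.0, 19.5 and 23.0 CPM. Its log2 change between the days in SEG was 0.07 (95% interval -0.48 to 0.61, edgeR adjusted p = 0.902). In Erg it rose by 2.10 between the days (adjusted p = 0.000596), to 1.80, 2.30 and 1.25 CPM. Without replicate 1 of Erg at day 3 that rise was 2.97 (adjusted p = 3.12e-05), and without replicate 3 it was 1.52 (adjusted p = 0.00723). Sox17 held 1.93, 2.02 and 1.89 CPM at day 7 and overlapped Erg, while control held 0.567, 0.136 and 0.423. SEG was then 12.8-fold above Erg (log2 difference 3.70, SE 0.31, adjusted p = 4.81e-09), and the difference between SEG and Erg changed by -2.03 between the days (SE 0.49, adjusted p = 0.00628). That change was -2.88 without replicate 1 of Erg at day 3 (adjusted p = 0.000323) and -1.45 without replicate 3 (adjusted p = 0.0359). By mean, both SEG groups came first and overlapped each other. Sox17 at day 7, Erg at day 7 and Sox17 at day 3 followed, each overlapping the next, and Erg at day 3 and both control groups overlapped at the bottom.

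Cxcr4 is also carried by leukocytes, so markers of these cells were read beside it. The 16 macrophage and leukocyte markers, led by Ptprc, Csf1r and Adgre1, summed to 53.3 to 56.0 CPM in SEG at day 3 and 87.1 to 93.5 in Erg. In control they summed to 57.2 to 60.6 CPM that day. At day 7 they summed to 122 to 171 CPM in SEG and 557.6 to 579 in Erg, against 101 to 126 in control. No marker was at 0 counts over a group. Of the 16, none were higher and 14 were lower in SEG than in Erg at day 7 (edgeR), where 49.4% of all genes were called. Against control at day 7, 15 rose and 1 fell in Erg, where 48.5% of all genes were called. Between the days, 16 of the markers rose in Erg, 14 in SEG, 11 in Sox17 and 9 in control, and none were called lower. Of all genes, 30.0%, 27.2%, 29.5% and 29.5% were called in these comparisons, in the same order. Cxcr4 was called as rising between the days in Erg and was not called in SEG, Sox17 or control (edgeR). In Sox17 its log2 change was 0.69 (edgeR adjusted p = 0.112). DESeq2 called that rise (adjusted p = 0.0359), as did edgeR without replicate 1 of Erg at day 3 (adjusted p = 0.0451). The part of leukocytes in the levels of Cxcr4 was not tested.

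Ackr3, the scavenging receptor, changed places between the days. At day 3 it was highest in Erg, at 21.6, 19.3 and 21.8 CPM, while SEG held 4.70, 4.64 and 4.67. Control held 6.47, 7.48 and 6.34 CPM and Sox17 held 3.46, 3.00 and 2.57, so the 4 conditions did not overlap. SEG was 4.47-fold below Erg (log2 difference -2.16, SE 0.16, edgeR adjusted p = 1.02e-09). Against control, Ackr3 rose by 1.63 in Erg (adjusted p = 6.23e-08) and fell by 1.16 in Sox17 (adjusted p = 1.02e-05). In SEG it fell by 0.53 (adjusted p = 0.0136), a call lost without replicate 2 of control at day 3 (adjusted p = 0.0676).

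At day 7 Ackr3 was highest in SEG, at 16.2, 19.1 and 19.6 CPM. Erg held 10.8, 12.5 and 11.4 CPM, Sox17 held 9.06, 10.9 and 14.4, and control held 8.16, 9.46 and 6.35. SEG lay above every library of the other conditions that day and was 1.58-fold above Erg (log2 difference 0.67, SE 0.15, edgeR adjusted p = 0.00125). That difference was not called in a test of changes beyond 1.5-fold (adjusted p = 0.364). The sign had turned, and the change of the difference between the days was 2.83 (SE 0.22, adjusted p = 6.02e-08). Between the days Ackr3 rose by 1.97 in SEG (adjusted p = 2.24e-08) and by 1.91 in Sox17 (adjusted p = 5.36e-08), and fell by 0.86 in Erg (adjusted p = 0.000263). In control it was not called (log2 change 0.24, adjusted p = 0.313). Erg rose by 0.53 (adjusted p = 0.00888) and Sox17 by 0.52 (adjusted p = 0.00916) against control at day 7. Without replicate 3 of control at day 7 neither was called, with adjusted p of 0.0653 in Erg and 0.0692 in Sox17. Nor was either called in a test beyond 1.5-fold (adjusted p = 0.805 in Erg and 0.762 in Sox17). The Sox17 call was also lost when only the groups compared were fitted (adjusted p = 0.158). SEG rose by 1.20 against control at day 7 (adjusted p = 2.8e-06). In the order of means, Erg at day 3 and SEG at day 7 overlapped at the top, the day 7 groups of Erg, Sox17 and control and control at day 3 overlapped in turn, and SEG and Sox17 at day 3 stood apart at the bottom.

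Cxcl12, the ligand of both chemokine receptors, was highest in control and lower in each factor group. At day 3 control held 276, 269 and 265 CPM and Erg 188, 180 and 187. Sox17 held 31.4, 33.6 and 28.3 CPM and SEG held 64.0, 69.3 and 69.2. SEG thus lay between the single-factor groups, 2.74-fold below Erg (log2 difference -1.45, SE 0.10, edgeR adjusted p = 2.9e-10) and 2.17-fold above Sox17 (log2 difference 1.12, adjusted p = 4.04e-08). At day 7 control had gone up to 479.5, 445 and 424 CPM, while Erg held 108, 106 and 111, Sox17 20.3, 16.7 and 24.6, and SEG 44.1, 50.5 and 47.4. SEG was 2.29-fold below Erg (log2 difference -1.19, SE 0.10, adjusted p = 5.71e-09). The change of this difference between the days was not called (0.26, 95% interval -0.04 to 0.56, adjusted p = 0.245). Over the days Cxcl12 rose by 0.73 in control (adjusted p = 9.52e-06) and fell by 0.77 in Erg (adjusted p = 6.6e-06), 0.60 in Sox17 (adjusted p = 0.000159) and 0.51 in SEG (adjusted p = 0.000599). No group overlapped its neighbour in the order of the 8 means. The order was control at day 7 and day 3, Erg at day 3 and day 7, SEG at day 3 and day 7, and Sox17 at day 3 and day 7.

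Comparing SEG with Erg, 5 of the 5 members tested were called at day 3, 2 higher and 3 lower, and in none of the 5 did the SEG and Erg libraries overlap. The libraries of SEG and Erg did not overlap in 72.3% of all genes tested at day 3 and 57.2% at day 7. Over all genes tested, 51.0% were called at day 3, 25.7% higher and 25.3% lower, so a call by itself was common. At day 7 again 5 of 5 were called, 3 higher and 2 lower, with Ackr3 having turned, against 49.4% of all genes, 24.7% higher and 24.8% lower. Among the 5, the difference between SEG and Erg was called as changing between the days for Esm1, Cxcr4 and Ackr3, while 17.5% of all genes were called in that test. That share was 25.5% with only the groups compared and 43.3% without both outlying day 7 libraries. Without both, SEG against Erg called 67.2% of all genes at day 3 and 68.2% at day 7. Leaving out both raised the share over all genes in every comparison made here.

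**Figure D2:**
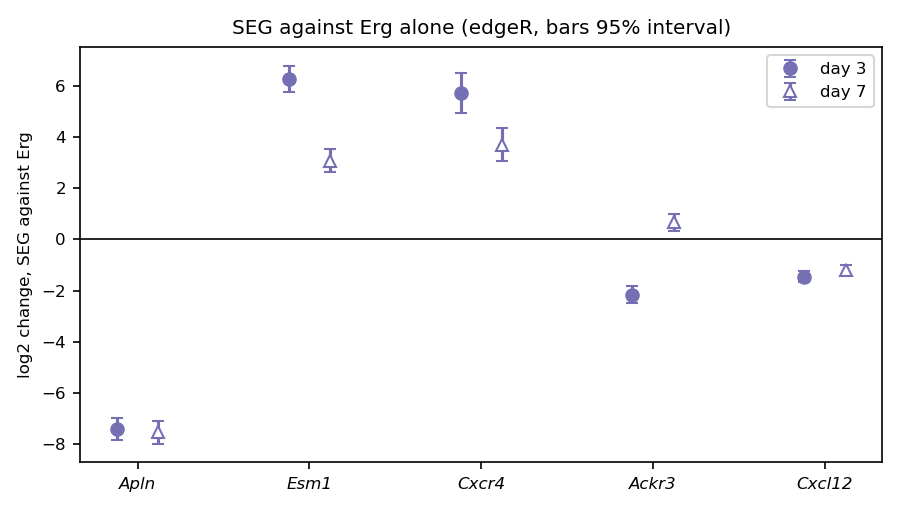
The log2 difference of SEG from Erg for each tested gene at day 3 (filled circles) and day 7 (open triangles), with 95% intervals from edgeR. Apln stayed near -7.5 at both days, Esm1 and Cxcr4 were above 0 and smaller at day 7, Ackr3 crossed 0, and Cxcl12 stayed below 0.

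Whether SEG could be read as Erg and Sox17 added together was tested as the difference between its log2 change and the sum of both single-factor changes. The comparisons share the control libraries. SEG also holds less Erg than the Erg cells, and at day 3 less Sox17 than the Sox17 cells, as given above. For Apln the sum at day 3 was 6.99 and SEG was at -0.75, a difference of -7.73 (edgeR adjusted p = 1.58e-14), and at day 7 the difference was -8.17. Esm1 lay above the sum, at 5.596 against 1.57 at day 3 and 3.12 against 1.09 at day 7. Cxcr4 lay above it at day 3 (6.46 against 3.01, adjusted p = 0.00101), by 3.45, or by 4.28 without replicate 1 of Erg at day 3. At day 7 Cxcr4 was at 5.95 against 4.64, and the difference was not called by edgeR (1.30, adjusted p = 0.0606) but was by DESeq2 (adjusted p = 0.0168). It was also called by edgeR on leaving out any 1 of 4 libraries: replicate 1 or 3 of Erg at day 3, replicate 2 of Erg at day 7 or replicate 2 of control at day 7 (differences from 1.25 to 1.72). Cxcl12 had fallen less than the sum at both days, at -2.00 against -3.66 at day 3 and -3.25 against -6.51 at day 7. Ackr3 was below the sum at day 3 (-0.53 against 0.47, adjusted p = 0.00194) and differed from it at day 7 by 0.15 (adjusted p = 0.597). In all, 5 of 5 members were called at day 3 and 3 of 5 at day 7, against 36.0% and 48.8% of all genes. Without both outlying day 7 libraries those shares of all genes were 54.9% and 60.3%.

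**Figure D3:**
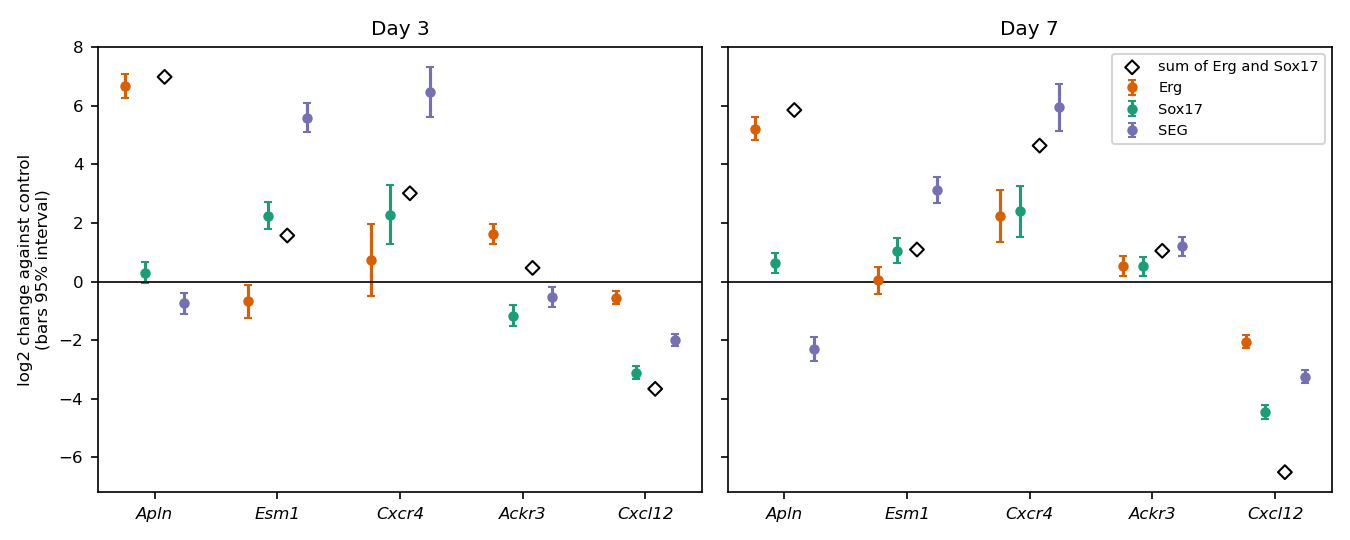
The log2 change against control of each tested gene in Erg, Sox17 and SEG, with 95% intervals from edgeR, and the sum of the Erg and Sox17 changes as open diamonds, at day 3 and day 7. For Apln the SEG point lies below 0 and the diamond near 7 at day 3, while for Esm1 and Cxcr4 the SEG point lies above the diamond.

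Against control itself, 4 of 5 members were called in Erg at day 3 (46.1% of all genes) and 4 of 5 at day 7 (48.5%). In SEG 5 of 5 were called at both days, with 40.2% and 44.3% of all genes. In Sox17 4 of 5 were called at day 3 (40.4%) and 5 of 5 at day 7 (54.5%). SEG differed from Sox17 in 5 of 5 members at both days, where 28.3% and 39.9% of all genes were called. Sox17 differed from Erg in 5 of 5 at day 3 (55.3%) and in 3 of 5 at day 7 (55.0%). Between the days, 2 members were called in control (29.5% of all genes), 5 in Erg (30.0%), 2 in Sox17 (29.5%) and 4 in SEG (27.2%).

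Levels of different genes were compared per kilobase of exon, on the CPM scale. Cxcl12 exceeded Cxcr4 by a ratio of 245 in control at day 3 and 265 at day 7. In Erg the ratio was 88.3 at day 3 and 13.4 at day 7, and in Sox17 it was 5.74 and 2.33. The Erg ratio at day 3 was 167 without replicate 1, which held most of the few Cxcr4 counts, and 65.4 without replicate 3. In SEG the receptor exceeded the ligand, with ratios of 0.683 and 0.458. With the longest transcript as the length, the SEG ratios were 0.992 and 0.665, so at day 3 ligand and receptor were about equal on that scale. Of the pair of receptors, Ackr3 exceeded Cxcr4 per kilobase 15.01-fold in control and 24.4-fold in Erg at day 3. In Erg this was 45.6-fold without replicate 1 and 17.7-fold without replicate 3. In SEG Cxcr4 exceeded Ackr3, 8.66-fold at day 3 and 2.31-fold at day 7. These are ratios of group means and carry no test.

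**Figure D4:**
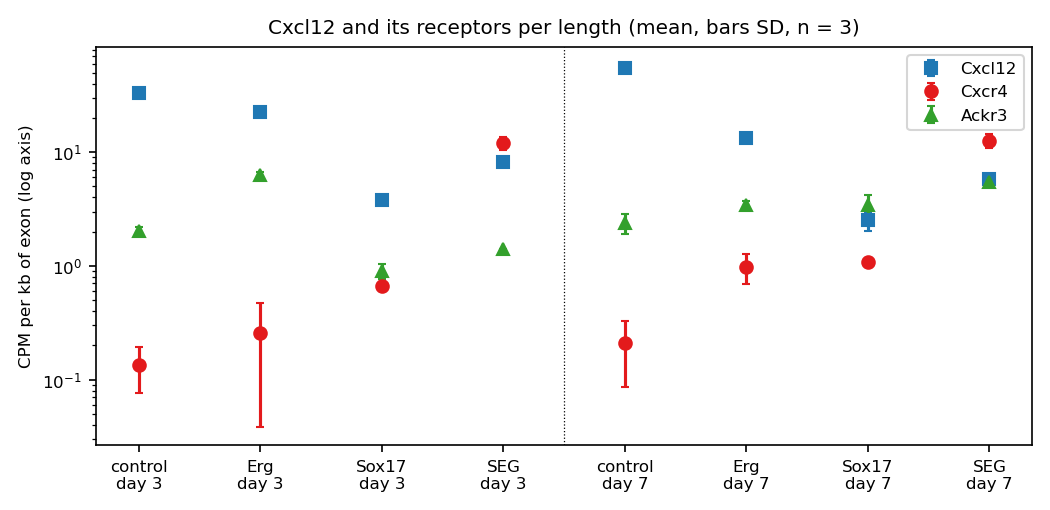
Mean CPM per kilobase of exon (log axis) of Cxcl12, Cxcr4 and Ackr3 in each group, with SD over 3 libraries as bars. The Cxcl12 squares lie far above the Cxcr4 circles in control and below them in SEG at both days.

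Other genes of the same processes were read from lists. For each list below, the share of all genes called in SEG against Erg was 51.0% at day 3 and 49.4% at day 7. Of 19 other tip cell genes, 18 passed the filter. In SEG against Erg 12 were higher and 5 lower at day 3, and 10 higher and 7 lower at day 7 (edgeR). The median log2 difference was 0.75 at day 3 and 0.93 at day 7, against 0.02 and 0.01 over all genes. Dll4, the Notch ligand of tip cells, averaged 102 ± 2.85 CPM in SEG and 0.843 ± 0.307 in Erg at day 3, and 265 ± 3.39 against 0.233 ± 0.200 at day 7. Pdgfb, which recruits pericytes, averaged 40.1 ± 0.747 against 1.88 ± 0.235 CPM at day 3. Igfbp3, a binding protein of insulin-like growth factors, stood at 2406 ± 99.2 against 25.8 ± 2.08 CPM at day 3. Ramp3, a partner of the adrenomedullin receptor, went the other way, at 1.06 ± 0.242 CPM in SEG and 30.9 ± 0.789 in Erg at day 3. Nrp2, a coreceptor of VEGF and semaphorins, was also lower in SEG, at 14.98 ± 2.69 against 182 ± 21.8 CPM at day 7. Called tip cell genes lay on both sides, as the members did.

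Genes of stalk cells and of the Notch response were more often higher than lower in SEG. Of 13 tested, 9 were higher and 3 lower than in Erg at day 3, and 10 higher and 1 lower at day 7 (2 lower without replicate 1 of Sox17 at day 7), with median log2 differences of 1.23 and 2.42. Hey1, a target of Notch, averaged 40.7 ± 3.09 CPM in SEG against 4.48 ± 1.11 in Erg at day 3, and 172.5 ± 4.19 against 2.88 ± 0.286 at day 7. Tie1, an orphan receptor of endothelial cells, stood at 221 ± 13.8 against 1.02 ± 0.00776 CPM at day 3. Jag2, a Notch ligand, was lower, at 1.16 ± 0.197 CPM in SEG against 126 ± 1.59 in Erg at day 3. Flt1, the decoy receptor of VEGF, was lower too, at 25.9 ± 2.73 against 203.6 ± 3.84 CPM.

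The list of apelin processing and signalling genes had 18 of its 20 genes tested, Apela and Pcsk1 having failed the filter. In SEG against Erg 4 were higher and 8 lower at day 3 (median log2 difference -0.13), and 6 higher and 5 lower at day 7 (median 0.29). Without replicate 1 of Sox17 at day 7, 10 were higher at day 7. Arrb1, a beta-arrestin, averaged 23.4 ± 1.52 CPM in SEG and 100.3 ± 3.27 in Erg at day 3. Mme, a peptidase that cleaves apelin, was lower in SEG at day 3 (27.6 ± 2.65 against 72.8 ± 1.56 CPM) and higher at day 7 (108 ± 32.98 against 47.8 ± 7.41 CPM).

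Of 20 genes of the CXCL12 pathway, 19 were tested. SEG against Erg called 51.0% of all genes at day 3 and 49.4% at day 7. Of the 19, 3 were higher and 7 lower at day 3 (median log2 difference -0.43), and 2 higher and 10 lower at day 7 (median -0.29). At day 3, 1 was higher without replicate 3 of Erg. At day 7, 6 were lower without replicate 2 of SEG and 4 were higher without replicate 1 of Sox17. Rgs16, a brake on G protein signalling, averaged 70.6 ± 8.79 CPM in SEG against 7.05 ± 0.897 in Erg at day 3 and 52.5 ± 1.60 against 4.74 ± 0.757 at day 7. Cxcl14, a chemokine that binds Cxcr4, averaged 3.12 ± 0.0241 against 16.4 ± 0.175 CPM at day 3. Mmp2, a protease that cleaves Cxcl12, averaged 427 ± 34.0 against 866 ± 20.6 CPM.

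Other atypical chemokine receptors were lower in SEG than in Erg. Of 6 listed, 5 were tested. At day 3 none were higher and 4 were lower (median log2 difference -4.05), and at day 7 1 was higher and 4 were lower (median -3.23). Ccrl2 averaged 2.39 ± 0.416 CPM in SEG and 83.5 ± 4.28 in Erg at day 3, and 3.30 ± 0.213 against 31.1 ± 2.27 at day 7. Gpr182, an endothelial scavenger of chemokines, averaged 2.05 ± 0.495 against 49.97 ± 1.45 CPM at day 3. Ackr4 averaged 5.14 ± 0.430 against 44.8 ± 0.889 CPM at day 3. At day 3 these 3 receptors were thus higher in Erg, as Ackr3 was, and at day 7 Ccrl2 was still higher in Erg while Ackr3 was not. Pitpnm3 was the 1 higher in SEG at day 7, at 2.66 ± 0.895 CPM against 0.0305 ± 0.0528. Its Erg level was near the limit of counting, since 3 counts over the 3 Erg libraries at day 7 would be 0.04 CPM.

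Hypoxia response genes split. Apln and Cxcr4 are known targets of hypoxia, so 16 further genes of that response were listed. In SEG against Erg 6 were higher and 7 lower at day 3 (median log2 difference -0.09), and 5 higher and 4 lower at day 7 (median 0.20). The shares over all genes were 51.0% at day 3 and 49.4% at day 7. Ndrg1 averaged 8.56 ± 0.966 CPM in SEG and 178.7 ± 1.82 in Erg at day 3. Hk2, which starts glycolysis, averaged 75.1 ± 3.19 against 43.3 ± 2.39 CPM.

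**Figure D5:**
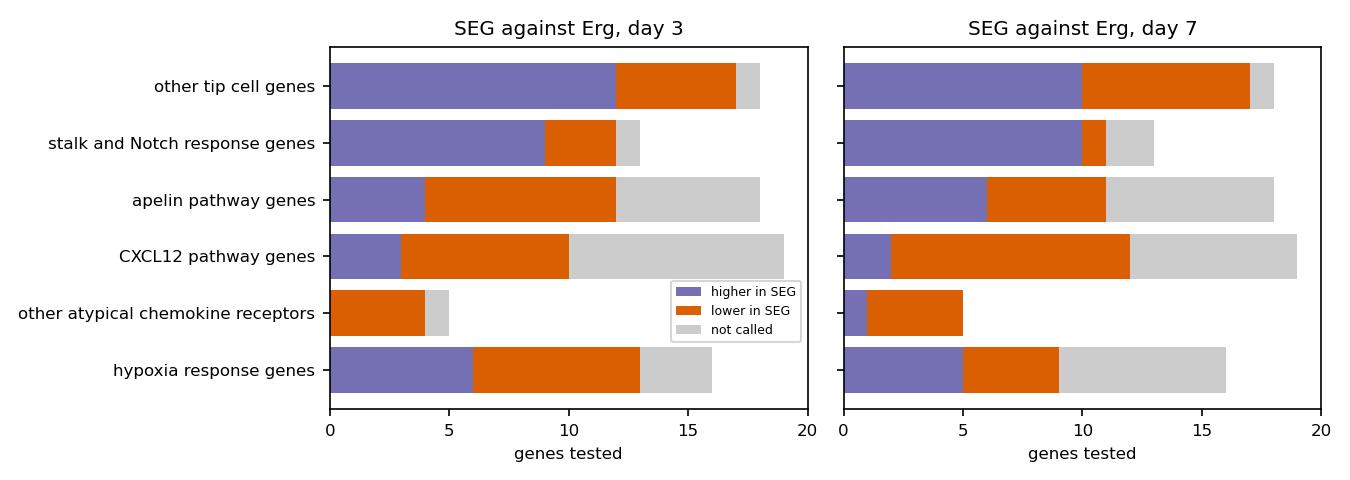
Number of tested genes of each list called higher in SEG (purple), lower in SEG (orange) or not called (grey) against Erg at day 3 and day 7, by edgeR at an adjusted p under 0.05. Most stalk and Notch response genes were higher in SEG, and 4 of 5 other atypical chemokine receptors were lower at each day.

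Markers of other cell types were read in the same groups. Beside their counts, SEG against Erg called 51.0% of all genes at day 3 and 49.4% at day 7. Mural cell markers summed to 1313 to 1623 CPM in SEG and 715 to 745 in Erg at day 3, and to 2181 to 2480 in SEG against 637 to 719 in Erg at day 7. Their sums were higher in Sox17, at 1926 to 2797 CPM at day 3 and 2677 to 4511 at day 7. In control the mural sums were 521 to 593 CPM at day 3 and 146 to 164 at day 7. Of 11 tested, 5 were higher and 2 lower in SEG than in Erg at day 3, and 7 higher and 1 lower at day 7. Lymphatic endothelial markers summed to 228 to 230.5 CPM in SEG and 1115 to 1125 in Erg at day 3, and to 197 to 218 against 621 to 704 at day 7. Control lay above SEG, with lymphatic sums of 397 to 407 CPM at day 3 and 315 to 347 at day 7. So did Sox17, at 380.5 to 387.8 CPM at day 3 and 561 to 847 at day 7. Of 5 tested, 1 was higher and 4 were lower in SEG than in Erg at each day. Fibroblast markers summed to 18170 to 19440 CPM in SEG and 21720 to 22380 in Erg at day 3. At day 7 the order of the sums was the other way, at 17880 to 19430 CPM in SEG and 14460 to 14780 in Erg. Of the 12, 8 were lower in SEG than in Erg at each day, with 2 higher at day 3 and 4 at day 7. Epicardial and mesothelial markers did not exceed 22.9 summed CPM and cardiomyocyte markers did not exceed 94.6. Of 5 and 3 tested, 4 epicardial genes and 1 cardiomyocyte gene were lower in SEG than in Erg at day 3. At day 7, 4 epicardial genes were lower and 1 was higher. The part of these cells in the members' differences was not tested.

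Genes with the most similar pattern were found by Pearson's correlation of log2 CPM over the 24 libraries, which share 8 groups of 3, among 10324 named genes. For Apln they were Stac2 (r = 0.979), Pald1 (0.967) and Myo18b (0.966). For Esm1 they were Dhx38 (0.955), Tspan14 (0.952) and Jkamp (0.952). For Cxcr4 they were Myct1 (0.957), Cbs (0.950) and Dusp2 (0.945). For Cxcl12 they were Gfpt2 (0.980), Il17ra (0.975) and B3gnt9 (0.972). Ackr3 had less similar neighbours, the nearest being Cebpg (0.891), Lgmn (0.875) and P2ry6 (0.866).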

How the data were processed

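RNA sequencing counts of 24 libraries (8 groups of 3) were analysed. The deposited values are raw whole-number counts of 35727 genes with Ensembl identifiers. Per the submitters' processing notes, Salmon, DESeq2 and mm10 were used. The sources used here do not give versions, annotation release, strand setting, filters or whether estimates were rounded. An RNeasy kit was used for RNA and Novogene made messenger RNA libraries, per the labels' protocols.

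Tests were run with edgeR 4.0.16 in R 4.3.3 (quasi-likelihood test, TMM, filterByExpr at a minimum count of 10), which loads limma 3.58.1, with 1 mean per group and 19 two-sided comparisons, each adjusted over 14804 genes at 0.05. Fitted log2 changes have a prior count of 0.125 and log2 CPM one of 2. SE is the log2 change over the root of F. Positions and exon lengths come from GENCODE M21, and promoter windows from RefSeq. Total counts per library ran from 18794422 to 44586227, and no pair of libraries of a group was alike within sampling noise (chi-square per degree of freedom from 2.88 to 456.6). DESeq2 1.42.0, RLE size factors, no filter, a replicate block, fits restricted to the compared groups, a test beyond 1.5-fold and leaving out each library were tried. Leaving out both outlying day 7 libraries was added after the data were seen. The test was also run on simulated counts with far fewer changed genes than were called here, so that run cannot vouch for these calls. Python 3.11.15, pandas 2.3.3 and matplotlib 3.10.9 made the tables and figures.

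The members and lists were chosen with earlier results of these data known. The genes named besides the members are Erg and Sox17, up to 4 called genes with the largest change of each list that reach 1 CPM in either group, the first marker genes of each cell type, and the 3 genes most like each member among named genes with at least 10 CPM in their highest group. From these the text gives a selection.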

Additional observations from a re-analysis of the deposited data

Results flagged for a closer look

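The difference between SEG and Erg was not the same at day 3 and day 7 for 3 genes, by edgeR's test of the difference itself. For Esm1 it changed by -3.19 on the log2 scale (adjusted p = 5.54e-07), from 6.27 at day 3 to 3.08 at day 7. For Ackr3 it changed by 2.83 (adjusted p = 6.02e-08), from -2.16 to 0.67, so the sign turned. For Cxcr4 it changed by -2.03 (adjusted p = 0.00628), from 5.73 to 3.70. Without replicate 1 of Erg at day 3 the Cxcr4 change was -2.88 (adjusted p = 0.000323), and without replicate 3 it was -1.45 (adjusted p = 0.0359). No explanation was tested.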

How the results depend on the processing

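Of the alternatives for single members, 2868 kept direction and side of the threshold, 46 lost the call, 12 gained one and 17 reversed. In a test beyond 1.5-fold, the members called went to 2 in Erg against control at day 3, 3 in SEG against control at day 3, 3 in Sox17 against control at day 7, 0 in control between the days, 3 in Erg between the days and 1 in Sox17 between the days. Of all genes, this test called 20.9%, 17.4%, 26.8%, 8.84%, 8.34% and 6.91% in these comparisons, in the same order. Ackr3 in SEG against Erg at day 7 kept its 0.67 without a call. This test asks for larger changes by construction. With only the groups compared, 3 members were called in Sox17 against control at day 7 and 1 in Sox17 between the days, against 31.5% and 6.18% of all genes. DESeq2 called 4 in the latter, against 33.1%. The cause was not tested. Leaving out single libraries gave 1 to 2 members in control between the days, with 23.2% to 42.9% of all genes called.

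None of the values that reversed was called by edgeR, with all libraries or under the alternative that reversed it. On leaving out single libraries, Cxcr4 in Erg against control at day 3 ran from -0.115 to 1.31, Esm1 in Erg against control at day 7 from -0.185 to 0.17, and Apln in control between the days from -0.04 to 0.18. In Sox17 against Erg at day 7, Ackr3 ran from -0.21 to 0.13 and Cxcr4 from -0.073 to 0.37. Cxcr4 in SEG between the days ran from -0.018 to 0.18 and the change between the days in Apln from -0.295 to 0.027. Without both outlying day 7 libraries, Ackr3 in Sox17 against Erg at day 7 was 0.11 and Cxcr4 in SEG between the days was -0.01. Of list counts in SEG against Erg, the test beyond 1.5-fold left 2 higher and 5 lower apelin genes at day 3 and 3 and 3 at day 7, 1 higher and 4 lower CXCL12 genes at day 3 and 4 lower at day 7, and 1 higher and 3 lower hypoxia genes at day 3 and 1 higher at day 7. With only the groups compared, and without both outlying libraries, 6 CXCL12 genes were higher at day 3. Without both, 10 apelin genes were higher at day 7. Of all genes, SEG against Erg at day 3 called 72.9% with only the groups compared and 67.2% without both, in place of 51.0%. At day 7 it called 68.2% without both, in place of 49.4%.

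With the replicate number as a block within day, 1 member was called in control between the days in place of 2 (24.8% of all genes), Apln there was -0.002 and Cxcr4 in SEG between the days was -0.11. The labels do not say whether the numbers pair the libraries, and the counts did not settle it. Deviations of same-numbered libraries correlated from -0.42 to 0.69 (median 0.01), and those of other-numbered libraries from -0.63 to 0.48 (median 0.005). The own number correlated best in 26 of 72 cases. The value of 0.69 was between replicate 1 of Sox17 and replicate 1 of SEG at day 7, the outlying libraries. In a test beyond 1.5-fold, 1678 genes were higher and 1917 lower in SEG than in Erg at day 3, against 3809 and 3742, and 1595 and 1955 at day 7, against 3652 and 3668. Depth limits Aplnr, and Cxcr4 in control and in Erg at day 3.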
